A study of Mus musculus with 12 samples.

Results

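Mitochondrial DNA of the mouse carries 13 protein-coding genes, whose symbols start with mt-, and the 10 of them that the files list are described here in KPC cells, a mouse PDAC line, treated with cisplatin (Cis). Members were every listed transcript with such a symbol, 10 of 15803 transcripts with a read in at least 1 library, and all 10 had reads in every library. They are mt-Nd1 (ENSMUSG00000064341), mt-Nd2 (ENSMUSG00000064345), mt-Nd3 (ENSMUSG00000064360), mt-Nd4l (ENSMUSG00000065947), mt-Nd5 (ENSMUSG00000064367) and mt-Nd6 (ENSMUSG00000064368) of complex I, mt-Co1 (ENSMUSG00000064351) and mt-Co2 (ENSMUSG00000064354) of complex IV, and mt-Atp6 (ENSMUSG00000064357) and mt-Atp8 (ENSMUSG00000064356) of complex V. The other members of this gene set, mt-Nd4 of complex I, mt-Co3 of complex IV and mt-Cytb, the only mitochondrially encoded subunit of complex III, are not listed in the files used here and were not analysed, so complex III has no measured member. Cells received 20 μM Cis for 6 or 21 h, and the control cells, which the labels give as untreated and the study's methods as PBS treated, served both time points. The labels give no duration for these controls, so time in culture and time with Cis cannot be told apart. Ribosome profiling and RNA-seq each had 2 libraries per group, 12 in all, from a single cell line. Nothing in the labels says that the 2 libraries of a group came from separate cultures, so the p-values measure the spread between these libraries, which may be technical.

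As background, these genes are transcribed inside the mitochondrion as long polycistronic RNAs from the heavy and the light strand, cut into single mRNAs mainly at the tRNAs between them, and translated by mitochondrial ribosomes into membrane subunits of the respiratory chain and the ATP synthase. All other subunits of these complexes, and all proteins of the mitochondrial ribosome, are made by cytosolic ribosomes from nuclear genes. CHX, which was in the lysis buffer, acts on cytosolic ribosomes and not on mitochondrial ones. Cis is a platinum drug that forms adducts with DNA. In ribosome profiling, fragments of RNA that ribosomes protect from RNase (footprints) are sequenced, so that footprints on a coding sequence measure how many ribosomes occupy it. RNA-seq of the lysate measures the mRNA, and footprints divided by RNA give the translational efficiency (TE).

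The proteins differ in length and in role. Subunits mt-Nd1 to mt-Nd6 build the membrane arm of complex I (NADH dehydrogenase), with mt-Nd1 near the quinone site and mt-Nd2 and mt-Nd5 among the proton-pumping subunits. Subunit mt-Co1 holds the oxygen-reducing centre of cytochrome c oxidase, and mt-Co2 takes the electrons from cytochrome c. In the ATP synthase, mt-Atp6 forms part of the proton path and mt-Atp8 is a small membrane subunit beside it. Coding sequences ran from 67 codons in mt-Atp8 to 607 in mt-Nd5. In the RefSeq annotation of GRCm38.p6, used here only for the order of the genes, mt-Atp8 overlaps mt-Atp6, mt-Atp6 overlaps mt-Co3, mt-Nd4l overlaps mt-Nd4, and mt-Nd5 overlaps mt-Nd6, which lies on the other strand. How reads in these overlaps were counted, and whether counting used the strand, is not given in the sources used here, so that values of these neighbours share some uncertainty and reads of mt-Nd6 and of RNA antisense to it cannot be told apart. RefSeq also lists Gm10925, a nuclear pseudogene copy of mt-Atp6, and reads that match both cannot be assigned.

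Values deposited by the authors are RPKM, reads scaled by the length of the coding sequence (footprints) or transcript (RNA-seq) and by the library's total. Footprint libraries held 3375480 to 5204127 reads and RNA-seq libraries 1985344 to 2901692, with 51.8 to 56.6% of the latter on Lars2, Tmem38b and Mettl26. The least covered member had 369 to 730 reads in a footprint library and 104 to 212 in an RNA-seq library. The lowest read count was that of mt-Nd4l in RNA-seq. Chi-square per degree of freedom between the libraries of a group was 1.45 to 3.97, highest for the PBS footprint libraries, so that the replicates differed by more than counting error. Epithelial markers (Krt7, Krt8, Krt18, Krt19, Epcam, Cdh1) had more than 3 reads for 6 of 6 genes in footprints and 5 of 6 in RNA-seq, with summed footprints of 9101 to 9781 RPKM with PBS and 6697 to 6838 at 21 h. Leukocyte markers summed to 2.07 to 2.35 RPKM with PBS and 3.76 to 10.4 at 21 h in footprints, with Cd3e at 0 in both assays and Ptprc and Lyz2 at 0 in RNA-seq, and fibroblast and endothelial markers summed to at most 4.18 RPKM. The part of these shifts in the results was not tested. All values are relative to the rest of the library, so a rise of a member and a fall of the other transcripts cannot be told apart, nor can fewer mitochondria per cell and less RNA per mitochondrion. The study reported inhibited protein synthesis under Cis from a puromycin incorporation assay, and its part in the member changes was not tested. It also reported no notable change in mitochondrial structure and no significant change in mitochondrial proteins under Cis. Neither was measured in these libraries.

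At the level of whole libraries, the 10 genes together took a larger part of the footprints at 21 h of Cis and a slightly smaller part of the RNA. Their share of footprint reads was 1.89% and 1.46% in the PBS libraries, 1.49% and 1.62% at 6 h, and 2.64% and 2.70% at 21 h, so that both 21 h libraries lay above the other 4. Means were 1.67 ± 0.307% (SD, n = 2), 1.55 ± 0.0877% and 2.67 ± 0.0422%. In RNA-seq the share was 0.878% and 0.856% with PBS, 0.801% and 0.875% at 6 h, and 0.784% and 0.752% at 21 h. Wilson intervals (95%) of these shares were at most 0.0340 percentage points wide and cover counting error only. Without the reads of Lars2, Tmem38b and Mettl26, the mean RNA share was 1.89 ± 0.0572% with PBS, 1.93 ± 0.118% at 6 h and 1.63 ± 0.0969% at 21 h. These shares are given without a test, because in groups of 2 exact permutation goes no lower than p = 0.333 (two-sided).

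**Figure D1:**
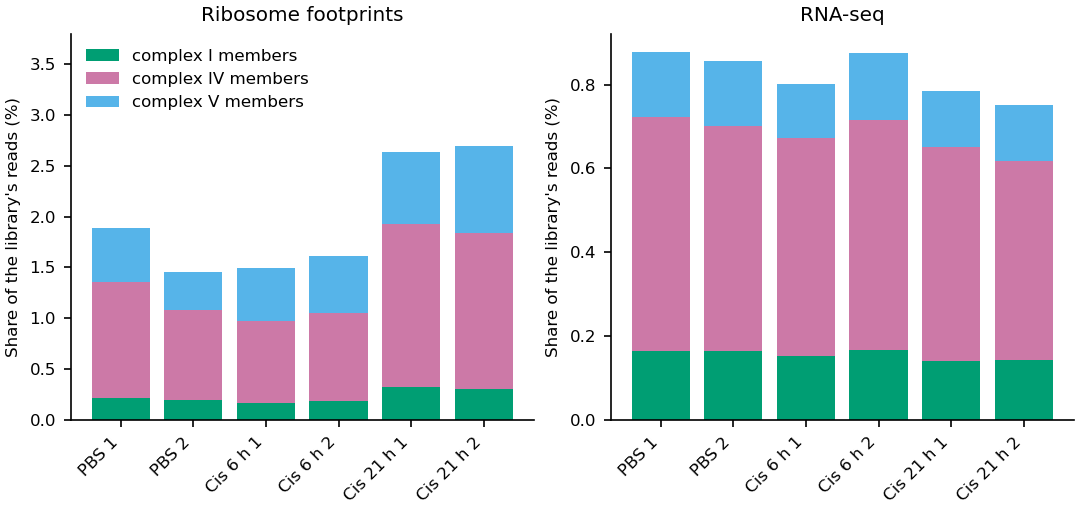
Share of all reads of a library (%, y axis, from 0) that fell on the 10 mitochondrially encoded genes, stacked by complex, for each of the 12 libraries (x axis), with footprints on the left and RNA-seq on the right. Both 21 h footprint libraries reach over 2.6%, while the RNA-seq bars stay between 0.752% and 0.878%.

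The larger footprint share at 21 h was seen in each of the 3 complexes. Complex IV genes held 1.01 ± 0.176% of footprint reads (SD, n = 2) in PBS cells, 0.834 ± 0.0448% after 6 h and 1.57 ± 0.0495% at 21 h. Complex V genes held 0.459 ± 0.114%, 0.546 ± 0.0327% and 0.782 ± 0.108%. The 6 complex I genes held the smallest part, 0.204 ± 0.0184%, 0.173 ± 0.0103% and 0.312 ± 0.0160%. In RNA-seq, complex I went from 0.165 ± 0.000527% with PBS to 0.141 ± 0.00115% at 21 h, complex IV from 0.547 ± 0.0145% to 0.494 ± 0.0258%, and complex V from 0.155 ± 0.000722% to 0.133 ± 0.00184%.

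Per length, the 10 genes fell into a high group of complex IV and V genes and a low group of complex I genes in both assays. In PBS footprints the order was mt-Atp6 (5525 ± 1458 RPKM, SD, n = 2), mt-Co1 (5132 ± 822), mt-Atp8 (4216 ± 733), mt-Co2 (3230.0 ± 716), mt-Nd6 (1427 ± 182), mt-Nd4l (433 ± 61.8), mt-Nd3 (406 ± 79.8), mt-Nd5 (309 ± 67.8), mt-Nd1 (267 ± 81.6) and mt-Nd2 (209 ± 29.3). Only the steps from mt-Co2 to mt-Nd6 and from mt-Nd6 to mt-Nd4l separated the libraries of neighbours in this order, while the ranges of all other neighbours overlapped. The highest gene had 26.4 times the footprint RPKM of the lowest with PBS, 38.2 times at 6 h and 28.1 times at 21 h. In RNA-seq the PBS order was mt-Co1 (2679.5 ± 81.6 RPKM), mt-Atp6 (1980.2 ± 8.59), mt-Co2 (1938 ± 28.0), mt-Atp8 (1009.9 ± 64.1), mt-Nd6 (619 ± 39.5), mt-Nd1 (540.3 ± 1.84), mt-Nd3 (366 ± 14.4), mt-Nd4l (245 ± 0.853), mt-Nd2 (214 ± 4.99) and mt-Nd5 (212 ± 9.66). There only mt-Nd2 and mt-Nd5 overlapped as neighbours, and the highest gene had 12.6 times the RPKM of the lowest, 14.4 times at 6 h and 16.2 times at 21 h.

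**Figure D2:**
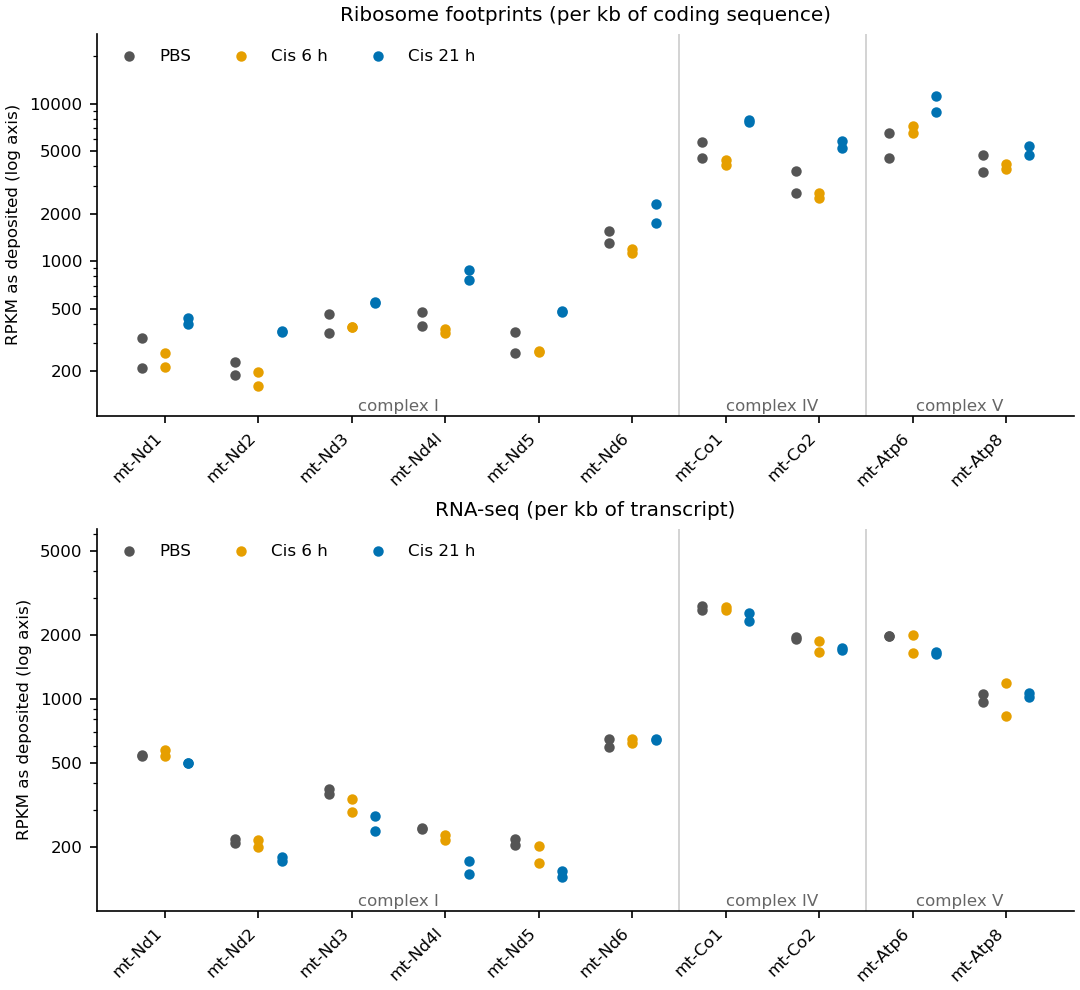
RPKM as deposited (y axis, log scale) of each member in every library (points, 2 per group), for footprints (top) and RNA-seq (bottom), with genes grouped by complex on the x axis. The 21 h points of mt-Nd4l sit at 762 and 875 in footprints, above the PBS points, and at 150.3 and 172 in RNA-seq, below them.

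Relative to other mRNAs, most members carried few footprints for their RNA in PBS-treated cells. The ratio of mean footprint to mean RNA RPKM, divided by the median ratio of 9292 transcripts, was 0.143 for mt-Nd1, 0.283 for mt-Nd2, 0.322 for mt-Nd3, 0.423 for mt-Nd5, 0.513 for mt-Nd4l and 0.671 for mt-Nd6. It was 0.483 for mt-Co2 and 0.556 for mt-Co1 of complex IV, and 0.809 for mt-Atp6 and 1.21 for mt-Atp8 of complex V. The mRNA mt-Nd1 stood at percentile 1.07 of all ratios, and mt-Atp8, the only member above the median, at percentile 60.9. At 21 h the same relative ratio was 1.85 for mt-Atp6, 1.54 for mt-Nd4l and 1.47 for mt-Atp8, between 0.951 and 0.971 for mt-Nd5, mt-Nd6, mt-Co1 and mt-Co2, 0.640 for mt-Nd3, 0.614 for mt-Nd2 and 0.253 for mt-Nd1. For mt-Nd4l that was a move from percentile 18.6 to percentile 73.1. These ratios compare different ribosomes with different handling in the assay, so only changes of the same gene were tested.

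To ask how Cis changed these genes, log2(scaled RPKM + 0.5) was compared between groups with limma across all transcripts, and TE as the interaction of assay and treatment. At 21 h, footprints rose relative to PBS for 9 of the 10 members, against 18.9% of all 10383 transcripts tested that were higher and 20.2% that were lower. Their median log2 change was 0.62, while that of all transcripts was 0.01. RNA fell for 8 of 10 members, against 12.2% of 9443 transcripts lower and 11.6% higher, with a median of -0.30 against 0.02. The size of the RNA fall depended on the scaling, with a member median of -0.22 and 5 members lower without scaling factors, and of -0.16 with 5 lower and 1 (mt-Nd6) higher with quantile normalization. TE rose for 7 of 10 members and fell for 0, against 0.258% of 9295 transcripts higher and 0.151% lower, and the members' median was 1.0 against -0.04. Only 24 transcripts in all passed for higher TE at 21 h, so the 7 members were 29.2% of them. The TE count also depended on the setting. It was 0 without limma's variance trend and lower with several single libraries left out, as given below.

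**Figure D3:**
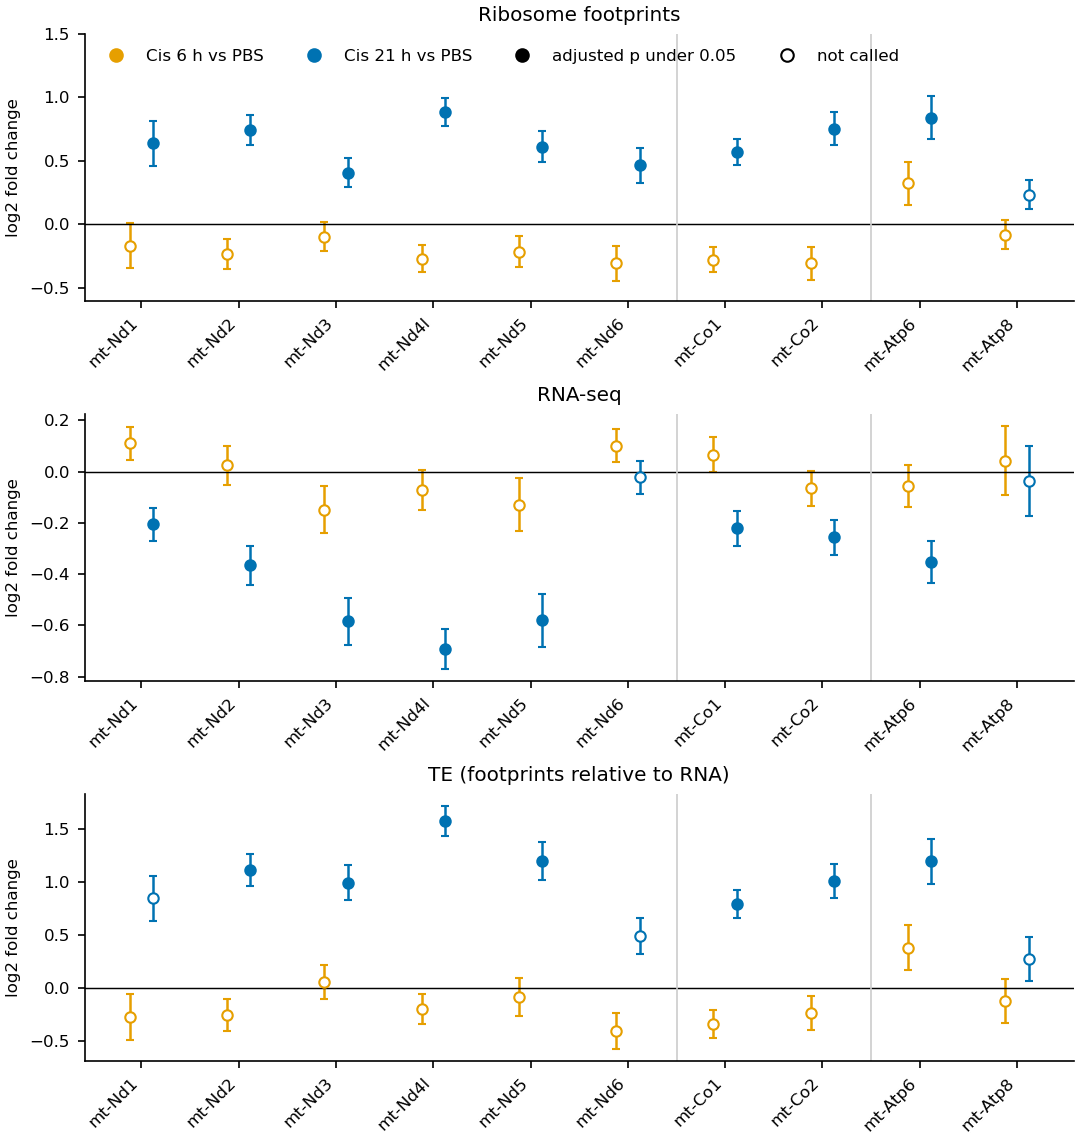
Log2 fold change against PBS (y axis, ± SE from limma) of each member (x axis, grouped by complex) at 6 h and 21 h of Cis, in footprints, RNA-seq and TE, with filled points for an adjusted p under 0.05. At 21 h footprint changes run from 0.23 to 0.88, RNA changes from -0.69 to -0.02 and TE changes from 0.27 to 1.58, while all 6 h points are open. With quantile normalization, RNA of mt-Nd1, mt-Nd6 and mt-Atp8 at 21 h lies above 0.

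Among the complex I genes, mt-Nd4l, a short subunit of the membrane arm, moved most in all 3 measures. Its footprints were 477 and 389.7 RPKM with PBS, 352 and 372 at 6 h, and 762 and 875 at 21 h. Its RNA was 245 and 246 RPKM with PBS, 217 and 229 at 6 h, and 150.3 and 172 at 21 h. Both 21 h libraries lay above the other 4 in footprints and below the other 4 in RNA. At 21 h its footprints rose 1.85-fold (log2 0.88, SE 0.11, adjusted p = 0.000451 from limma) and its RNA fell by 0.69 in log2 units (SE 0.08, adjusted p = 0.000447 from limma). Its TE rose 2.98-fold (log2 1.58, SE 0.14, adjusted p = 0.000889 from limma), rank 22 of 9295 transcripts by log2 change. The RNA values rest on 179 and 212 reads with PBS and 104 and 107 at 21 h.

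For mt-Nd2, a proton-pumping subunit, footprints were 229.7 and 188 RPKM with PBS, 161 and 199 at 6 h, and 361 and 354 at 21 h. Its RNA was 218 and 210.5 RPKM with PBS, 200.4 and 215 at 6 h, and 173 and 179 at 21 h. The 21 h libraries were again the highest in footprints and the lowest in RNA. Footprints rose 1.67-fold at 21 h (log2 0.74, SE 0.12, adjusted p = 0.00177 from limma), RNA fell by 0.36 in log2 units (SE 0.08, adjusted p = 0.00852), and TE rose 2.16-fold (log2 1.11, SE 0.15, adjusted p = 0.0158). Its TE call was lost under 6 of 23 alternatives.

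The longest member, mt-Nd5, a further proton-pumping subunit, had footprints of 357 and 261 RPKM with PBS, 263 and 269 at 6 h, and 479.7 and 478 at 21 h. Its RNA was 219 and 205 RPKM with PBS, 168 and 202 at 6 h, and 155 and 145 at 21 h. The 21 h libraries did not overlap with the PBS libraries in either assay. Footprints rose 1.53-fold at 21 h (log2 0.61, SE 0.12, adjusted p = 0.00509 from limma), RNA fell by 0.58 (SE 0.10, adjusted p = 0.00400) on the log2 scale, and TE rose 2.28-fold (log2 1.19, SE 0.18, adjusted p = 0.0245). Its TE call was lost under 10 of 23 alternatives.

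For mt-Nd3, a small subunit at the junction with the hydrophilic arm, footprints were 462 and 349 RPKM with PBS, 379 and 379.5 at 6 h, and 544 and 550.2 at 21 h. Its RNA was 376 and 356 RPKM with PBS, 292 and 339 at 6 h, and 238 and 280.4 at 21 h. Both 21 h libraries lay outside the PBS range in each assay, upwards in footprints and downwards in RNA. Footprints of mt-Nd3 rose 1.33-fold at 21 h (log2 0.41, SE 0.11, adjusted p = 0.0208 from limma), RNA fell by 0.58 in log2 units (SE 0.09, adjusted p = 0.00217) and TE rose 1.99-fold (log2 0.99, SE 0.16, adjusted p = 0.0360). Its TE call was lost under 14 of 23 alternatives.

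The remaining complex I genes did not pass the test for TE. In mt-Nd1, at the quinone site, footprints were 324 and 209 RPKM with PBS, 211 and 259.9 at 6 h, and 399.8 and 432 at 21 h. RNA of mt-Nd1 was 539 and 542 RPKM with PBS, 539 and 573 at 6 h, and 496 and 498 at 21 h. Its PBS footprint libraries stood further apart than those of any other complex I gene relative to their mean, and the 21 h libraries were above both. Footprints of mt-Nd1 rose 1.56-fold at 21 h (log2 0.64, SE 0.18, adjusted p = 0.0217 from limma) and its RNA change was -0.20 (SE 0.06, adjusted p = 0.0446). That RNA call was lost under 11 of 16 alternatives, and under quantile normalization the change turned to 0.0519 (adjusted p = 0.536). Its TE change was 0.84 (95% interval 0.37 to 1.31, adjusted p = 0.125). Leaving out PBS footprint library 2 gave a footprint change of 0.34 for mt-Nd1 (adjusted p = 0.106), and leaving out 21 h footprint library 2 gave 0.59 (adjusted p = 0.0850). The same omissions gave 0.22 (adjusted p = 0.0811) and 0.41 (adjusted p = 0.0659) for mt-Nd3, which also missed the threshold without 21 h library 1 (0.43, adjusted p = 0.0523).

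In mt-Nd6, the only member on the light strand, footprints were 1299 and 1555 RPKM with PBS, 1121 and 1202 at 6 h, and 2303 and 1757 at 21 h. Its RNA was 591 and 647 RPKM with PBS, 620.2 and 644 at 6 h, and 642 and 649.9 at 21 h. Footprints at 21 h were above the other libraries, while the RNA ranges of all 3 groups overlapped. Footprints of mt-Nd6 rose 1.38-fold (log2 0.46, SE 0.14, adjusted p = 0.0267 from limma), and this passed neither without PBS footprint library 1 (0.31, adjusted p = 0.154) nor without 21 h footprint library 1 (0.28, adjusted p = 0.131). The RNA change of mt-Nd6 at 21 h was -0.02 (95% interval -0.16 to 0.12, adjusted p = 0.846) and its TE change 0.49 (95% interval 0.12 to 0.85, adjusted p = 0.268). With quantile normalization the RNA change turned to 0.21 (adjusted p = 0.0266).

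Both complex IV genes passed for higher footprints and TE and for lower RNA at 21 h, and their footprint calls held under all 16 alternatives. The catalytic subunit mt-Co1 took the most reads of all members, with footprints of 5714 and 4551 RPKM with PBS, 4095 and 4421 at 6 h, and 7879 and 7655 at 21 h. Its RNA was 2737 and 2622 RPKM with PBS, 2630.3 and 2720.2 at 6 h, and 2546 and 2332 at 21 h. The 21 h libraries were the highest in footprints and the lowest in RNA. Footprints of mt-Co1 rose 1.48-fold (log2 0.57, SE 0.10, adjusted p = 0.00273 from limma), RNA fell by 0.22 in log2 units (SE 0.07, adjusted p = 0.0445) and TE rose 1.73-fold (log2 0.79, SE 0.13, adjusted p = 0.0360). For mt-Co2, footprints were 3736 and 2724 RPKM with PBS, 2512 and 2705 at 6 h, and 5781 and 5260.3 at 21 h. Its RNA was 1958 and 1918 RPKM with PBS, 1662 and 1877 at 6 h, and 1745 and 1695 at 21 h. Here the 21 h RNA libraries lay below both PBS libraries but inside the 6 h range. Footprints of mt-Co2 rose 1.69-fold (log2 0.75, SE 0.13, adjusted p = 0.00222 from limma), RNA fell by 0.26 in log2 units (SE 0.07, adjusted p = 0.0253) and TE rose 2.01-fold (log2 1.01, SE 0.16, adjusted p = 0.0353). The RNA call was lost under 9 of 16 alternatives for mt-Co1 (changes of -0.32 to -0.12) and 7 of 16 for mt-Co2 (-0.31 to -0.03, the latter with quantile normalization, adjusted p = 0.636), and the TE call under 12 and 11 of 23.

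The complex V genes share a bicistronic mRNA, and the difference between their changes was not tested. Subunit mt-Atp6 had footprints of 6557 and 4494 RPKM with PBS, 6483 and 7252 at 6 h, and 8824 and 11249 at 21 h. Its RNA was 1974 and 1986 RPKM with PBS, 1646 and 2003 at 6 h, and 1619.6 and 1669.9 at 21 h. In footprints the 21 h libraries were the highest, and in RNA they lay below both PBS libraries. Footprints of mt-Atp6 rose 1.79-fold (log2 0.84, SE 0.17, adjusted p = 0.00504 from limma), RNA fell by 0.35 in log2 units (SE 0.08, adjusted p = 0.0127) and TE rose 2.28-fold (log2 1.19, SE 0.21, adjusted p = 0.0408). The RNA call of mt-Atp6 was lost under 6 of 16 alternatives and its TE call under 14 of 23. For mt-Atp8, footprints were 4734 and 3697 RPKM with PBS, 4142 and 3849.8 at 6 h, and 5362 and 4753 at 21 h. RNA of mt-Atp8 was 1055 and 965 RPKM with PBS, 829.6 and 1185 at 6 h, and 1063 and 1022 at 21 h. The lower 21 h footprint library of mt-Atp8 was barely above the higher PBS library, and its RNA ranges overlapped. No change of mt-Atp8 passed at 21 h, with 0.23 in footprints (95% interval -0.02 to 0.49, adjusted p = 0.133 from limma), -0.04 in RNA (-0.34 to 0.27, adjusted p = 0.871) and 0.27 in TE (-0.18 to 0.72, adjusted p = 0.625). Its footprint change passed without PBS footprint library 1 (0.39, adjusted p = 0.0209), with quantile normalization (0.32, adjusted p = 0.0316) and with voom (0.23, adjusted p = 0.0278).

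At 21 h, no member's footprint or TE change turned sign under any alternative. In RNA, quantile normalization turned mt-Nd1 (0.0519), mt-Nd6 (0.21) and mt-Atp8 (0.17) above 0, as did leaving out the scaling factors for mt-Nd6 (0.0632) and mt-Atp8 (0.0472). These last genes, neither called in RNA, also turned to between 0.0086 and 0.0374 without 21 h RNA-seq library 2 and without 1 of the PBS libraries (2 for mt-Nd6, 1 for mt-Atp8). Footprints of mt-Nd2, mt-Nd4l, mt-Nd5, mt-Co1, mt-Co2 and mt-Atp6 passed under all 16 alternatives. The RNA count went from 8 to 3 without PBS RNA-seq library 1, to 4 without PBS library 2 or 21 h library 2, and to 1 without limma's variance trend. The TE count went from 7 to 0 without that trend, and to 1 or 2 without PBS RNA-seq library 1 or 2, 21 h RNA-seq library 2, 21 h footprint library 2, or 6 h footprint library 1 or 2. It was 4 without PBS footprint library 2 or 21 h footprint library 1, and TE of mt-Nd4l still passed whichever library was left out.

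At 6 h, the mitochondrially encoded genes passed the test in no measure. In footprints 0 of 10 members were called, where 2.04% of all transcripts were called in either direction. Log2 changes ran from -0.31 (mt-Nd6) to 0.32 (mt-Atp6), with 9 members below 0. In limma, 2217 of all 10383 transcripts had an unadjusted p under 0.05, as had 3 members. These members were mt-Co1 (-0.28, 95% interval -0.51 to -0.04, adjusted p = 0.173 from limma), mt-Co2 (-0.31, -0.60 to -0.01, adjusted p = 0.216) and mt-Nd4l (-0.27, -0.51 to -0.02, adjusted p = 0.200). With voom, limma's method for reads, run on reads calculated back from RPKM, 4 members were called at 6 h, mt-Co1, mt-Co2 and mt-Nd6 lower and mt-Atp6 higher. The share of all transcripts that voom called was not counted, and the 2.04% above belongs to the main fit. Without PBS footprint library 1, the 6 h footprint changes of mt-Nd1 (0.12), mt-Nd3 (0.08) and mt-Atp8 (0.07) were above 0.

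In RNA at 6 h, 0 of 10 members were called, as were 0% of all transcripts, with 0 members and 1086 transcripts at an unadjusted p under 0.05 in limma. Member changes ran from -0.15 (mt-Nd3) to 0.11 (mt-Nd1), and voom called 0 members as well. In TE at 6 h, 0 of 10 members and 0% of all transcripts were called, with 2 members (mt-Co1 at -0.34 and mt-Nd6 at -0.41) and 710 transcripts at an unadjusted p under 0.05 in limma. Voom called 1 member in TE (mt-Co1), and its calls over all transcripts were not counted. The 6 h and 21 h comparisons share the PBS libraries, so a PBS library that stands apart moves both of them.

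Setting 21 h directly against 6 h leaves out the PBS libraries from the difference, but does not separate time with Cis from time in culture. Footprints were higher at 21 h for 9 of 10 members, against 15.0% of all transcripts higher and 15.7% lower. The rises were largest for mt-Nd4l (log2 1.15, SE 0.11, adjusted p = 0.000254 from limma), mt-Co2 (1.06, SE 0.13, adjusted p = 0.000838) and mt-Nd2 (0.97, SE 0.12, adjusted p = 0.000929), and smallest among those called for mt-Atp6 (0.52, SE 0.17, adjusted p = 0.0480) and mt-Nd3 (0.51, SE 0.11, adjusted p = 0.0115). For mt-Atp8 the change was 0.32 (95% interval 0.06 to 0.57, adjusted p = 0.0644). The call for mt-Atp6 was lost without 6 h library 1 (0.44, adjusted p = 0.209), 6 h library 2 (0.60, adjusted p = 0.106) or 21 h library 2 (0.34, adjusted p = 0.220), that for mt-Nd1 without 6 h library 1 (0.66, adjusted p = 0.0751) or 21 h library 2 (0.75, adjusted p = 0.0505), and that for mt-Nd3 without 6 h library 1 (0.51, adjusted p = 0.0613) or 2 (0.51, adjusted p = 0.0650).

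RNA was lower at 21 h than at 6 h for 7 of 10 members, against 8.21% of all transcripts lower and 7.53% higher. The exceptions were mt-Co2 (-0.19, adjusted p = 0.0928), mt-Nd6 (-0.12, adjusted p = 0.233) and mt-Atp8 (-0.08, adjusted p = 0.730). This comparison depended on the scaling, since leaving the scaling factors out moved the median change of all transcripts from 0.01 to 0.15 and left 1 member called, with member changes of -0.47 to 0.07. Without 6 h RNA-seq library 2, 1 member was called, and without 21 h RNA-seq library 2, 3 were. TE was higher at 21 h than at 6 h for 8 of 10 members, against 0.592% of all transcripts, and those 8 were 14.5% of the 55 called. Only mt-Atp6 (0.81, adjusted p = 0.109) and mt-Atp8 (0.40, adjusted p = 0.420) did not pass. Without the scaling factors the median TE change of all transcripts was -0.16 and the members ran from 0.27 to 1.64, with 8 called. The TE count was 5 without 6 h footprint library 1 or 2, 21 h footprint library 1, 6 h RNA-seq library 2 or 21 h RNA-seq library 1.

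The members did not move by equal amounts, and ratios within a library, which no scaling between libraries touches, show where. In footprints the ratio of mt-Nd4l to mt-Nd3, neighbours in gene order and both short subunits of complex I, was 1.03 and 1.11 with PBS, 0.927 and 0.980 at 6 h, and 1.40 and 1.59 at 21 h. The same ratio in RNA was 0.651 and 0.692, 0.742 and 0.676, and 0.631 and 0.615. For mt-Atp6 over mt-Atp8 the footprint ratio was 1.38 and 1.22 with PBS, 1.57 and 1.88 at 6 h, and 1.65 and 2.37 at 21 h, while the RNA ratio was 1.87 and 2.06, 1.98 and 1.69, and 1.52 and 1.63. Footprints on mt-Atp6 thus stood higher over those on mt-Atp8 in every Cis library than in either PBS library. Among the footprint reads of the 10 members, mt-Atp6 held 22.2 ± 1.83% (SD, n = 2) in PBS cells, 30.0 ± 0.681% after 6 h and 25.5 ± 3.96% at 21 h, and mt-Atp8 held 5.07 ± 0.0502%, 5.19 ± 0.560% and 3.81 ± 0.385%. The ratio of mt-Co1 to mt-Co2 in footprints was 1.53 and 1.67 with PBS, 1.63 and 1.63 at 6 h, and 1.36 and 1.46 at 21 h. The gene pairs were picked after the values were seen, and these ratios were not tested.

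RNA fell more for the last members on the heavy strand than for the first, in an order that runs from mt-Nd1 and mt-Nd2 at the start to mt-Nd5 near the end. At 21 h the falls on the log2 scale were 0.20 to 0.36 for mt-Nd1, mt-Nd2, mt-Co1 and mt-Co2 and 0.58 to 0.69 for mt-Nd3, mt-Nd4l and mt-Nd5 (mt-Nd1 was above 0 with quantile normalization), with mt-Atp6 (-0.35) and mt-Atp8 (-0.04) between them in position. Across the 9 heavy-strand genes, which share libraries and are not independent replicates, Spearman's rho between position and RNA change was -0.67 (Pearson's r -0.74) at 21 h and -0.83 (r -0.85) at 6 h against PBS, with the same PBS libraries in both, and -0.52 (r -0.53) for 21 h against 6 h. For footprints it was 0.07 at 21 h, 0.18 at 6 h and -0.05 between them. In each RNA-seq library, the summed RPKM of mt-Nd3, mt-Nd4l and mt-Nd5 as a percentage of that of mt-Nd1, mt-Nd2 and mt-Co1 was 24.0 and 23.9 with PBS, 20.1 and 21.9 at 6 h, and 16.9 and 19.9 at 21 h. All 4 Cis libraries were below both PBS libraries, and the 21 h libraries below the 6 h libraries. In footprints the percentage was 20.7 and 20.2, 22.2 and 20.9, and 20.7 and 22.6. There both 6 h libraries were above both PBS libraries, while the 21 h range overlapped that of PBS and that of 6 h. The ratio of mt-Nd6 to mt-Nd5 in RNA was 2.70 and 3.15 with PBS, 3.68 and 3.19 at 6 h, and 4.14 and 4.47 at 21 h. Both genes lie at the same end, on opposite strands, and overlap. Reads of mt-Nd6 and of RNA antisense to it cannot be told apart. These groups of genes were also chosen after the values were seen, and 3 genes of the order (mt-Co3, mt-Nd4 and mt-Cytb) are missing from it.

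**Figure D4:**
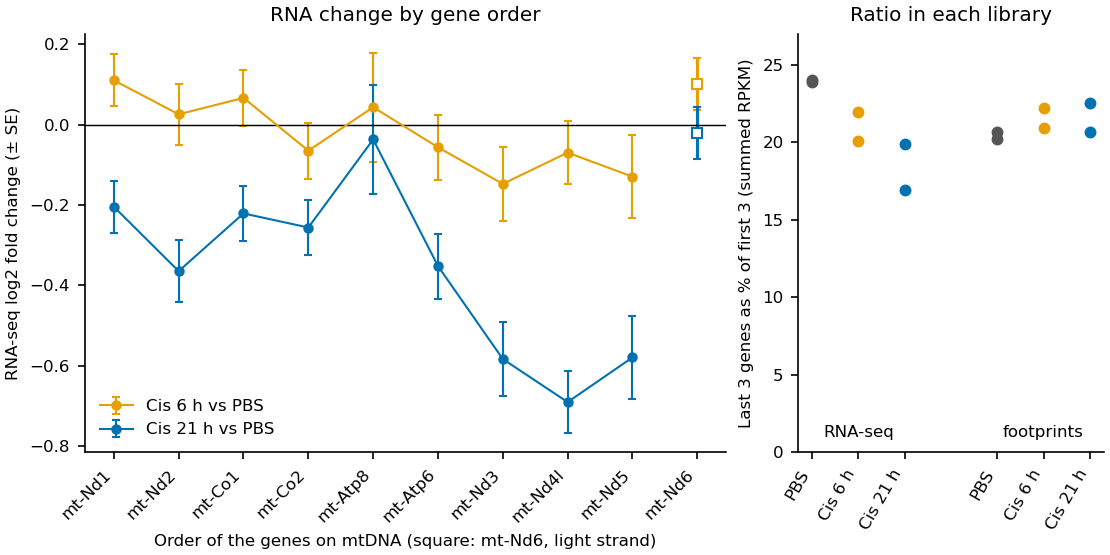
Left, RNA-seq log2 fold change against PBS (y axis, ± SE) of the members in the order of their genes on mitochondrial DNA (x axis), with mt-Nd6 of the light strand as a square and lines joining the 9 heavy-strand genes. Right, summed RPKM of the last 3 heavy-strand members (mt-Nd3, mt-Nd4l, mt-Nd5) as a percentage of the first 3 (mt-Nd1, mt-Nd2, mt-Co1) in each library (points), where RNA-seq goes from 24.0 and 23.9 with PBS to 16.9 and 19.9 at 21 h and footprints stay between 20.2 and 22.6.

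Nuclear genes for subunits of the same complexes, translated in the cytosol, were counted next. Of 75 such genes of complexes I, III, IV and V, footprints at 21 h were higher for 14 and lower for 3, with a median log2 change of 0.08. The share that was higher was near that of all transcripts (18.9%), and the share that was lower was below that of all transcripts (20.2%). RNA was higher for 3 and lower for 4 (11.6% and 12.2% of all transcripts), with a median of 0.01, and TE was higher for 1 and lower for 0 (0.258% and 0.151% of all transcripts), with a median of 0.02. By complex, footprints rose for 4 of 37 genes of complex I and fell for 2, rose for 2 of 9 of complex III, 4 of 11 of complex IV and 4 of 18 of complex V, and fell for 1 of complex V. Of the 4 subunits of complex II, which has no mitochondrially encoded part, 1 fell. At 6 h, footprints of 3 of the 75 rose and those of 2 fell, where 2.04% of all transcripts were called in either direction.

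**Figure D5:**
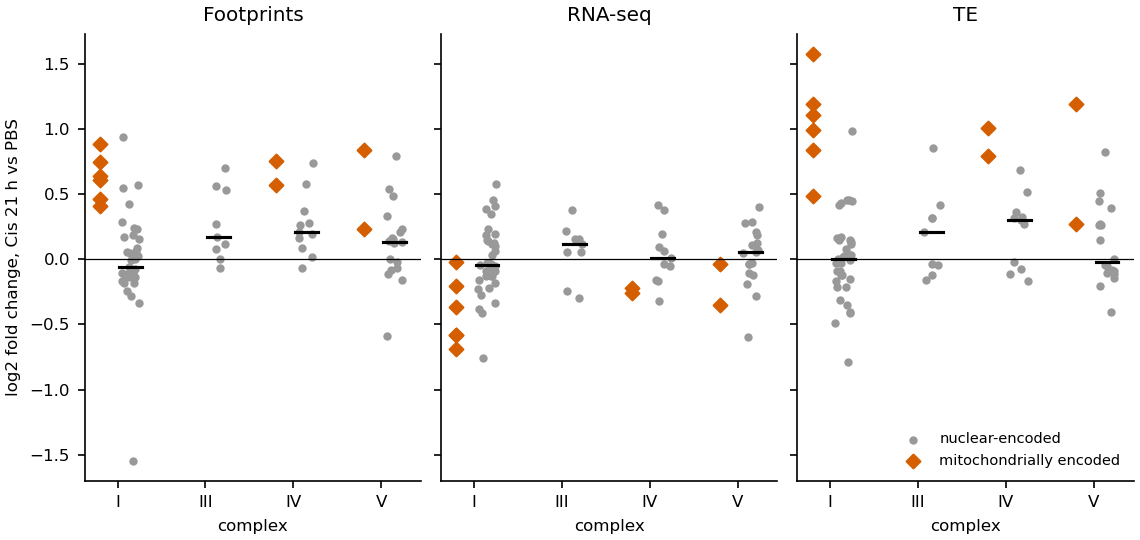
Log2 fold change at 21 h of Cis against PBS (y axis) of mitochondrially encoded members (diamonds) and nuclear-encoded subunits (dots, bar at their median) of complexes I, III, IV and V (x axis), in footprints, RNA-seq and TE. The medians of the nuclear subunits stay between -0.06 and 0.30, and no mitochondrially encoded gene of complex III was measured.

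Named by the largest called change, Ndufb1, an accessory subunit of complex I, went from 488 ± 61.8 to 957 ± 64.9 footprint RPKM at 21 h (SD, n = 2, log2 0.94, SE 0.10, adjusted p = 0.000198 from limma). Ndufs4, an accessory subunit needed for a stable complex I, fell from 430.4 ± 14.9 to 151 ± 14.1 footprint RPKM (log2 -1.54, SE 0.09, adjusted p = 1.38e-05) and in RNA by 0.76 (SE 0.19, adjusted p = 0.0174), and its footprints were already lower at 6 h (-0.49, adjusted p = 0.0385). Other footprint changes at 21 h were 0.70 for Uqcrq of complex III, 0.74 for Cox7a2 of complex IV, 0.79 for Atp5g1 and -0.59 for Atp5c1 of complex V, and -0.28 for Sdhb of complex II. In RNA they were 0.58 for Ndufa11, 0.38 for Uqcrq, 0.41 for Cox7a2, -0.32 for Cox7c and -0.59 for Atp5g2. The only nuclear subunit called in TE was Cox7c of complex IV, at 0.69 (SE 0.12, adjusted p = 0.0408). At 6 h the largest called footprint changes were 0.49 for Ndufs6, 0.46 for Atp5e and -0.55 for Atp5mpl. Between 21 h and 6 h they were 0.80 for Ndufb1, -1.06 for Ndufs4, 0.40 for Uqcrq, 0.49 for Ndufa4, 0.62 for Atp5h and -0.54 for Atp5c1 in footprints, and -1.15 for Ndufs4, -0.69 for Uqcr11, 0.42 for Cox6a1 and -0.70 for Atp5g2 in RNA.

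Genes that make or use mitochondrial mRNAs, all nuclear, were counted against all transcripts at 21 h, of which 18.9% were higher and 20.2% lower in footprints, 11.6% and 12.2% in RNA, and 0.258% and 0.151% in TE. Nothing particular to these 4 lists is read from their counts. Of 78 mitochondrial ribosomal proteins, footprints at 21 h rose for 18 and fell for 6 (median 0.08), RNA rose for 9 and fell for 2 (median 0.13), and TE passed for 0, with a median of -0.06. Their largest changes were in Mrpl49 of the large subunit (1.09 in footprints, SE 0.12, adjusted p = 0.000282 from limma), Mrps28 of the small subunit (-1.79 in footprints, SE 0.21, adjusted p = 0.000353, and -1.27 in RNA) and Mrps11 (1.08 in RNA). At 6 h, footprints of Mrpl15 rose by 0.54 and those of Mrps10 fell by 1.09, and from 6 to 21 h Mrps10 rose by 1.21, Mrps28 fell by 1.36 in footprints and by 1.23 in RNA, and Mrps31 rose by 0.80 in RNA. Of 15 mitochondrial translation factors, footprints rose for 2 and fell for 3, with a median of -0.22, and RNA and TE passed for 0. Mtif3, an initiation factor, rose by 0.66, and Mrrf, the ribosome recycling factor, fell by 0.78 in footprints against PBS and by 0.89 against 6 h.

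Of 11 genes of mitochondrial DNA replication and transcription, footprints at 21 h rose for 3 and fell for 2 (18.9% and 20.2% of all transcripts), with a median of 0.37, while RNA and TE passed for 0. Mterf4, which acts with the mitochondrial ribosome and transcription, rose by 0.67 against PBS and by 0.78 against 6 h, and Tfb1m, a methyltransferase of mitochondrial rRNA, fell by 0.79. Of 17 genes of mitochondrial RNA processing and stability, footprints rose for 4 and fell for 2, RNA rose for 3 (11.6% of all transcripts), and TE passed for 0, with a TE median of -0.27. Prorp, the nuclease that cuts the 5′ ends of mitochondrial tRNAs, fell from 9.13 ± 0.271 to 3.72 ± 1.10 footprint RPKM (SD, n = 2, log2 -1.25, SE 0.24, adjusted p = 0.00404 from limma). Its partner Trmt10c rose from 4.14 ± 1.80 to 12.6 ± 1.81 RPKM in RNA (log2 1.46, SE 0.29, adjusted p = 0.00698). Fastkd3, of a family of mitochondrial RNA-binding proteins, rose by 0.76 in footprints on a PBS mean of 2.64 RPKM, and Hsd17b10, also a partner of Prorp, rose by 0.37 from 6 to 21 h.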

How the data were processed

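Ribosome profiling and RNA-seq of KPC cells were analysed in 6 groups of 2 libraries, grouped by the sample labels. The authors deposited RPKM per library for 1 representative transcript per gene, without pooling. Their processing notes name cutadapt, STAR and GRCm39, and the counting tool, read filters and strand setting are not given in the sources used here. Transcripts without reads are not listed and were set to 0. Values times length were whole multiples of the value of 1 read (100%, tolerance 0.0001), which gave reads and depth. Intervals cover counting error only.

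Within an assay, median-of-ratios factors scaled the RPKM and transcripts averaging at least 1 were kept. Limma 3.58.1 (R 4.3.3, lmFit and eBayes with trend, 3 groups per model) tested log2(RPKM + 0.5), two-sided with Benjamini-Hochberg adjustment over all transcripts at 0.05. All 10 members passed the filter. Fold changes are on this scale and means ± SD are of RPKM as deposited. TE was the interaction over the 12 libraries among transcripts kept in both assays. Symbols and Ensembl IDs came from the files, and all 10 matched the reference names. No sequence of these genes was used here.

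Members and gene lists were chosen with earlier results of these data known. All 13 genes were to be named, and from each list the largest called rise and fall per comparison. Same-numbered libraries did not deviate together (correlations of replicate differences -0.0403 to 0.0352 over 9295 transcripts), so numbers were not used as pairs. The fits were repeated with a pseudocount of 0.1 or 1, without the filter, with a minimum of 5, without scaling, with quantile normalization, without the trend, with only the groups compared, with a replicate block, with TE per replicate number, with voom on the recovered reads and without each library in turn. A lone remaining library was assumed to vary like the other groups. The scripts were tested on simulated data. Python 3.11.15, pandas 2.3.3, numpy 2.4.6 and matplotlib 3.10.9 were used.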

Additional observations from a re-analysis of the deposited data

Results flagged for a closer look

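For 24 results the libraries at 21 h of Cis differed from those at 6 h. The test was limma's comparison of 21 h against 6 h given above (adjusted p under 0.05 over all transcripts, n = 2 libraries per group). The PBS libraries cancel from this difference, which is the 21 h effect minus the 6 h effect on the log2 scale. Time in culture and time with Cis cannot be told apart in it. For footprints it was 1.15 for mt-Nd4l, 1.06 for mt-Co2, 0.97 for mt-Nd2, 0.85 for mt-Co1, 0.83 for mt-Nd5, 0.80 for mt-Nd1, 0.77 for mt-Nd6, 0.52 for mt-Atp6 and 0.51 for mt-Nd3. For RNA it was -0.62 for mt-Nd4l, -0.45 for mt-Nd5, -0.44 for mt-Nd3, -0.39 for mt-Nd2, -0.31 for mt-Nd1, -0.30 for mt-Atp6 and -0.29 for mt-Co1. For TE it was 1.77 for mt-Nd4l, 1.37 for mt-Nd2, 1.28 for mt-Nd5, 1.25 for mt-Co2, 1.13 for mt-Co1, 1.12 for mt-Nd1, 0.94 for mt-Nd3 and 0.89 for mt-Nd6. In footprints and TE every one of these differences was above 0 and in RNA every one was below 0, and the same libraries enter all of them. Of all transcripts, 15.0% were higher in footprints, 8.21% lower in RNA and 0.592% higher in TE. Among these calls, that of mt-Atp6 in footprints was lost under 8 of 16 alternatives and that of mt-Nd1 in TE under 15 of 23. Those of mt-Nd4l in footprints and TE were lost under 0. Groups of 2 libraries are too small for a check of single outlying libraries.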

How the results depend on the processing

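Of the alternatives run for member changes that passed, 669 kept direction and side of the threshold, 203 lost the threshold and 1 reversed, and for those that had not passed, 719 stayed, 21 passed and 37 reversed. The cause of these moves was not tested. Numbers of members called, out of 10, moved by over 1.5 times as follows. For RNA at 21 h (8 called) they were 4 without a filter, 5 without scaling and 1 without the trend, and 3 to 7 with each library left out. For RNA at 21 h against 6 h (7 called) they were 4 without a filter, 1 without scaling, 4 with quantile normalization and 0 without the trend, and 1 to 6 with each library left out. For TE at 21 h (7 called) they were 2 without a filter, 0 without the trend, 2 with only the groups compared and 1 to 8 with each library left out. For TE at 21 h against 6 h (8 called) they were 1 without the trend and 5 to 9 with each library left out. At 6 h, voom called 4 members in footprints and 1 in TE, and its calls over all transcripts were not counted. With the replicate number as a block, which these numbers do not support as pairs, 1 member was called in TE at 21 h, and no other number moved by over 1.5 times.

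Apart from RNA of mt-Nd1 at 21 h, signs turned only for values that had not passed the threshold. With quantile normalization RNA changes at 21 h were 0.0519 for mt-Nd1 (adjusted p = 0.536), 0.21 for mt-Nd6 and 0.17 for mt-Atp8, at 21 h against 6 h 0.13 for mt-Nd6 and 0.24 for mt-Atp8, and at 6 h 0.0242 for mt-Atp6, -0.0675 for mt-Atp8, 0.00 for mt-Co1 and 0.0031 for mt-Co2. Without scaling they were 0.0472 for mt-Atp8 and 0.0632 for mt-Nd6 at 21 h, 0.0725 and 0.0312 at 21 h against 6 h, and at 6 h -0.0253 for mt-Atp8, -0.0022 for mt-Co1 and -0.0429 for mt-Nd2. With each library left out in turn, changes that crossed 0 ran in footprints at 6 h from -0.25 to 0.0699 for mt-Atp8, from -0.47 to 0.12 for mt-Nd1 and from -0.29 to 0.0774 for mt-Nd3, and in RNA at 6 h from -0.20 to 0.0816 for mt-Atp6, from -0.21 to 0.30 for mt-Atp8, from -0.15 to 0.0191 for mt-Co2 and from -0.0243 to 0.0734 for mt-Nd2. In RNA they ran at 21 h from -0.12 to 0.0374 for mt-Atp8 and from -0.0764 to 0.0254 for mt-Nd6, and at 21 h against 6 h from -0.34 to 0.17 for mt-Atp8. In TE at 6 h they ran from -0.38 to 0.13 for mt-Atp8, from -0.58 to 0.0127 for mt-Nd1, from -0.14 to 0.23 for mt-Nd3 and from -0.30 to 0.11 for mt-Nd5. The least covered member had as few as 104 RNA-seq reads against 369 footprints, and counting error is larger in RNA and TE accordingly.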
